A study of Mus musculus with 6 samples.

Results

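A set of 10 long noncoding RNAs of the mouse was followed in irradiated and untreated parotid gland: *Malat1*, *Neat1*, *Gas5*, *Snhg1*, *Snhg3*, *Snhg8*, *Snhg12*, *Pvt1*, *Meg3* and *Kcnq1ot1*. They were chosen by symbol, through the Ensembl gene IDs of the count tables, and are 10 of the 52636 genes listed. The parotid is a salivary gland built mainly of acinar cells. RNA was taken from glands of FVB mice, an inbred strain, aged 28 days. There were 3 irradiated samples, taken after a single radiation dose of 5 Gy, and 3 untreated ones. No transgene or other agent is named for either group, and the protocol text with the dose stands on all 6 samples although the treatment label separates them. The interval between irradiation and collection was not given in the labels, and neither is it stated that each sample came from its own mouse. The p-values therefore cover only sample-to-sample spread, which may be technical.

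Long noncoding RNAs are transcripts that are not translated into a known protein. *Malat1* and *Neat1* are retained in the nucleus. *Malat1* collects in nuclear speckles, which hold splicing factors, and the long form of *Neat1* is the scaffold of paraspeckles, neighbouring bodies made of RNA-binding proteins. *Gas5* and the *Snhg* genes are host genes: small nucleolar RNAs (snoRNAs), which guide the modification of ribosomal RNA, are cut out of their introns. The spliced remainder of several hosts is degraded by nonsense-mediated decay in the cytoplasm. Host transcripts and ribosomal protein mRNAs often begin with a C followed by a run of pyrimidines, the 5′ terminal oligopyrimidine motif, which ties their translation to growth signals. *Kcnq1ot1* and *Meg3* are imprinted, each expressed from one parental chromosome, and *Pvt1* lies beside the oncogene *Myc*.

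The first bases at annotated starts are shown because that motif is defined there. Start sites were taken from the RefSeq promoter windows of build GRCm38.p6, which matched 8 of the 10 genes with 10 windows, *Gas5* and *Meg3* having 2 each. *Neat1* and *Pvt1* had no entry. The first 30 bases from each of 5 starts are shown here, hosts first and *Malat1* for contrast, with the unbroken pyrimidine run at the very start in capitals.
Gas5, second start, chr1:161035166-161035195, plus strand: CTTTCggagctgtgcggcattctgagcagg
Snhg8, chr3:123508307-123508336, minus strand: CTCTTTggctgcgatccgcctacgagtatg
Snhg12, chr4:132308678-132308707, plus strand: TTTCTCgcttcatccgcggtccctgtctgt
Snhg1, chr19:8723487-8723516, plus strand: CTCatttttccttgttcggggtaagtactc
Malat1, chr19:5802643-5802672, minus strand: Caggcattcaggcagcgagagcagagcagc
A run of at least 5 pyrimidines opened the second *Gas5* start and the *Snhg8* and *Snhg12* starts, 3 of the 10 windows. The other *Gas5* start opens with a G and has no such run, and the *Snhg12* run begins with T, not with the C of the motif. Of all 32851 RefSeq windows 4.44% had such a run, and of 76 windows of ribosomal protein genes 22.4%. The *Snhg1* run was 3 bases long, and the annotated start of *Snhg3* had none. The E-box CACGTG, which reads the same on both strands, stood in 0 of the 10 windows of 300 bases and in 7.15% of all windows; its absence says only that these letters are not in these stretches.

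The hosts also enclose the snoRNAs themselves. Within the 5 host genes the annotation places 26 snoRNA genes on the host strand, 10 in *Gas5*, 8 in *Snhg1*, 5 in *Snhg12*, 2 in *Snhg3* and 1 in *Snhg8*. Examples of the C/D and H/ACA classes are shown, because they are the products for which these hosts are known. Capitals mark letter matches: the first TGATGA (as in a C box) and last CTGA (as in a D box) of the C/D members, and the last ACA of the H/ACA member. Whether a marked match is the working box was not tested.
Snord47 in Gas5, C/D, chr1:161038082-161038158, plus strand: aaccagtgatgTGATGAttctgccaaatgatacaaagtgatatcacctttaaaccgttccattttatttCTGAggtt
Snord99 in Snhg12, C/D, chr4:132310691-132310764, plus strand: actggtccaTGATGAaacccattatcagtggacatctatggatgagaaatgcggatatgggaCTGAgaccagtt
Snora24 in Snhg8, H/ACA, chr3:123507937-123508066, minus strand: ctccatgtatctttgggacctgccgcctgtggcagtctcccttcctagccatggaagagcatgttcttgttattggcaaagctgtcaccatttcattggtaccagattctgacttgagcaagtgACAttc
Searched on the snoRNA's own strand, TGATGA together with CTGA in the last 20 bases occurred in 15 of the 26, and ACA in the last 8 bases in 7. These snoRNA genes are 60 to 205 bases long, and each of the 26 was at 0 counts in all 6 libraries. Exons of the host overlap 25 of them in whole or in part, and a read on both genes may be set aside as ambiguous, depending on a counting mode that is not given in the sources used here. *Snora73b*, the 1 with no such overlap, was at 0 as well. Of all 1558 listed snoRNA genes, 203 had any count, with 1449 counts in total, so the snoRNAs gave no readout of host transcription here.

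Gene counts totalled 14454646, 7108359 and 12127162 in irradiated libraries 1 to 3, and 12787135, 12722189 and 15036193 in untreated libraries 1 to 3. Irradiated library 2 stood apart, with the lowest total, 10% of its reads not aligned against at most 4.33% in any other library, and 184 reads set aside for low alignment quality against at least 342749. Of the 8 acinar markers all were detected and 1 was called, lower, where 0.349% of all tested genes were called lower. It was *Car6*, a secreted carbonic anhydrase, at 7186, 7865 and 11360 CPM (counts scaled to 1000000 per library) in irradiated libraries against 15550, 16150 and 14030 CPM in untreated ones (edgeR adjusted p 0.0329). *Prol1*, a proline-rich secreted protein, stood at 441.5 CPM in irradiated library 2 and at 32.75 to 40.82 CPM in the other 5. The p53 response list had 6 of 12 genes called higher and 0 lower, where 0.652% of all tested genes were called higher. It was chosen with earlier results of these data known, so it is no independent check of the irradiated label. Its leading gene was the cell cycle inhibitor *Cdkn1a*, at 21.73, 25.93 and 18.01 CPM in irradiated libraries against 2.135, 1.833 and 2.264 CPM in untreated ones.

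Of the 10 noncoding RNAs, 8 had at least 1 count and 7 passed the filter on low counts. None of the 7 passed the threshold, an adjusted p (Benjamini-Hochberg, over 12885 genes) under 0.05 in edgeR's quasi-likelihood test, which 1.00% of all tested genes passed (0.652% higher and 0.349% lower in irradiated glands). At an unadjusted p under 0.05 there were 3 of 7, *Neat1*, *Malat1* and *Kcnq1ot1*, all lower, where the share of all tested genes was 15.0%. The 3 irradiated libraries lay wholly on one side of the 3 untreated ones for 2 of 7, *Neat1* and *Kcnq1ot1*, which is 28.6%, against 21.2% of all genes. DESeq2 called 1 of the 7, *Neat1*, lower at an adjusted p of 0.00845. In the whole table it called 155 of the 25422 genes with any count, 97 higher and 58 lower. The median log2 fold change of the 7, irradiated over untreated, was -0.53, with 6 negative and 1 positive, beside -0.01 over all tested genes. Without untreated library 3 the median of the 7 was -0.23, and without irradiated library 2 it was -0.36. With scaling by library totals alone these medians were -0.39 and 0.14.

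**Figure D1:**
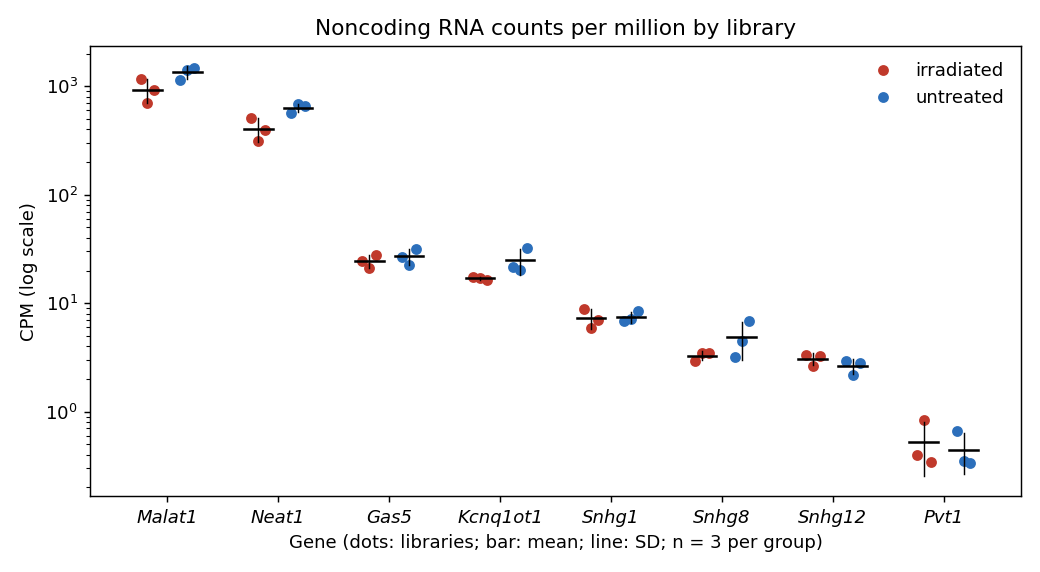
CPM (log scale) of the 8 noncoding RNAs with any count, in each irradiated library (red, left of each pair) and untreated library (blue, right); dots are libraries, bars means and vertical lines SD, n = 3 per group. *Neat1* and *Kcnq1ot1* are the 2 tested genes whose red and blue dots do not overlap, and *Pvt1* lies below 1 CPM in every library.

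*Malat1* and *Neat1* held most of the counts of the 10 RNAs. *Malat1* (ENSMUSG00000092341; GRCm38 chromosome 19, 5795690 to 5802672, minus strand, 6983 merged exon bases) had 17605, 5815 and 10821 counts in irradiated libraries and 13853, 16293 and 22167 counts in untreated ones. On the CPM scale these were 1170, 698.1 and 932.5 in irradiated glands, against 1138, 1422 and 1476 in untreated glands. The highest irradiated library stood just above the lowest untreated one, so the groups overlapped. *Malat1* averaged 933.5 ± 236 CPM in irradiated glands and 1345 ± 182 CPM in untreated glands (SD, n = 3 each). Its log2 fold change was -0.53 (SE 0.17, 95% interval -0.90 to -0.16), with an adjusted p of 0.153 by edgeR's quasi-likelihood test.

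*Neat1* (ENSMUSG00000092274; chromosome 19, 5824708 to 5845478, minus strand, 20771 exon bases) lies close to *Malat1* on the same strand. It had 7723, 2599 and 4605 counts in irradiated libraries and 6933, 7801 and 9811 counts in untreated ones. That is 513.3, 312 and 396.8 CPM in irradiated glands and 569.4, 680.8 and 653.2 CPM in untreated glands. Every irradiated library was below every untreated one. The means were 407.4 ± 101 CPM in irradiated and 634.5 ± 58 CPM in untreated glands (SD, n = 3 each). The log2 fold change was -0.64 (SE 0.16, 95% interval -0.98 to -0.30) with an adjusted p of 0.0614 by edgeR's quasi-likelihood test, rank 189 of the 12885 genes by p. The short and long isoforms of *Neat1* share their first bases and were counted as 1 gene, so the paraspeckle scaffold was not measured apart.

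The 2 RNAs varied together from library to library. Over the 6 libraries, the tested gene whose centred log2 CPM lay closest to *Malat1* was *Neat1*, at a root mean square difference of 0.0802, where the median over all genes was 0.432. *Mvb12a*, an ESCRT-I subunit, and *Mapk12*, a p38 kinase, came next at 0.0871 and 0.0963. Closest to *Neat1* after *Malat1* were the noncoding RNA *AI480526* at 0.0911 and the pseudogene *Rpl38-ps2* at 0.113. For each 100 *Malat1* counts there were 43.9, 44.7 and 42.6 *Neat1* counts in irradiated libraries and 50, 47.9 and 44.3 in untreated ones. The irradiated ratios lay closer together, and the highest of them exceeded the lowest untreated one. The log2 ratio differed by -0.115, at an exact two-sided permutation p of 0.2, where the smallest p that 3 against 3 allows is 0.1.

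**Figure D2:**
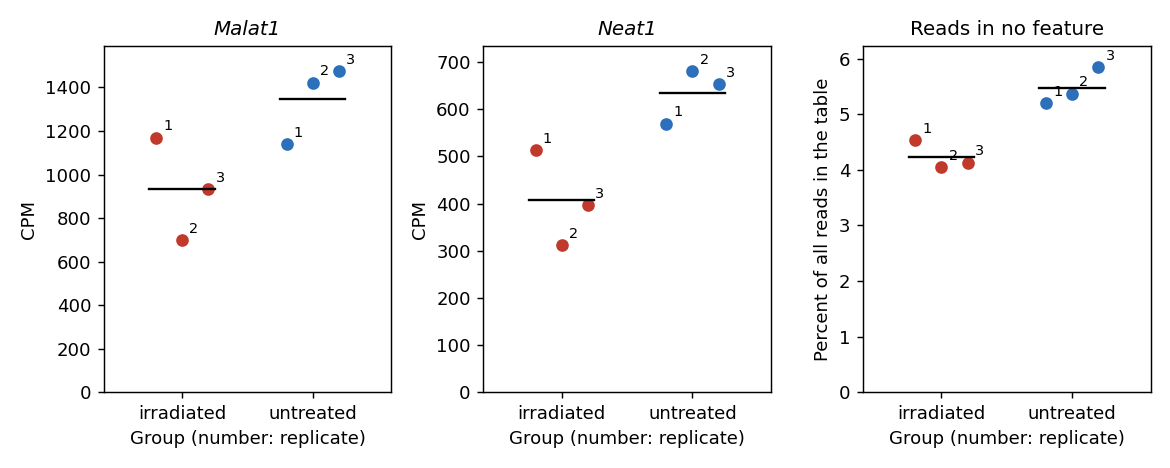
*Malat1* and *Neat1* in CPM, and the percentage of all reads in a table that fell in no annotated feature, in each library; irradiated libraries are red on the left, untreated libraries blue on the right, numbers are replicates and bars means. Irradiated library 2 is lowest in all 3 panels, and reads in no feature do not overlap between the groups.

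Some other measures also differed between the groups, not all in the same direction as these nuclear RNAs. Reads that fell in no annotated feature, among them intronic reads, made up 4.53%, 4.05% and 4.13% of the reads in irradiated libraries and 5.2%, 5.37% and 5.84% in untreated ones, lower in every irradiated library. Irradiated library 2, the shallow one, was the lowest for both RNAs. Without it the log2 fold changes were -0.36 for *Malat1* and -0.48 for *Neat1*, with edgeR adjusted p of 0.224 and 0.0651. Summed T cell markers stood at 32.9, 44.54 and 35.85 CPM in irradiated libraries against 14.21, 1.571 and 14.51 CPM in untreated ones, with all 9 markers detected. Summed B cell markers, 8 of 8 detected, stood at 32.97, 35.29 and 32.06 CPM in irradiated libraries against 16.34, 0.4363 and 8.788 CPM in untreated ones, so neither lymphocyte sum overlapped between the groups. Summed skeletal muscle markers, of which 6 of 8 passed the filter while *Tnnc2* and *Myog* were at 0 in every irradiated library and at most 2 counts in an untreated one, stood at 416.8, 477.4 and 156.2 CPM in irradiated libraries against 485, 584.4 and 606.3 CPM in untreated ones. Among irradiated libraries the muscle sum was highest in library 2, where both RNAs were lowest. The acinar, duct, macrophage, fat cell, fibroblast, endothelial, and nerve and glial marker sums overlapped between the groups. The part of these measures in the lower values of *Malat1* and *Neat1* was not tested. In bulk tissue, fewer cells of a type and less RNA per cell cannot be told apart.

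A protein-coding neighbour was measured as well. *Frmd8*, which encodes a partner of the iRhom proteins and lies 4224 bases from *Neat1*, stood at 4.453, 6.483 and 5.084 CPM in irradiated libraries and 2.875, 3.403 and 4.86 CPM in untreated ones. The groups overlapped, the log2 fold change was 0.50 (SE 0.26), and it did not pass the threshold.

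Genes for proteins of the bodies that these RNAs occupy were read beside them. Of 16 paraspeckle protein genes tested 0 passed in either direction by edgeR and 0 by DESeq2, with a median log2 fold change of -0.01 and 4 at an unadjusted p under 0.05. *Hnrnpk*, an RNA-binding protein of paraspeckles, had 142, 125 and 130.9 CPM in irradiated libraries and 126.2, 118.2 and 130.6 CPM in untreated ones, with overlapping groups and a log2 fold change of 0.09 (SE 0.11). Of 18 nuclear speckle protein genes 0 passed, with a median of -0.15 and 5 at an unadjusted p under 0.05. DESeq2 called 1. For both lists, the share of all tested genes at that unadjusted p was 15.0%. The speckle scaffolds *Srrm2* and *Son* had log2 fold changes of -0.19 (SE 0.13) and -0.20 (SE 0.12).

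*Kcnq1ot1* (ENSMUSG00000101609; chromosome 7, 143203458 to 143296549, minus strand) is a 93092-base unspliced RNA antisense to the potassium channel gene *Kcnq1*, and it silences neighbouring genes on the paternal chromosome. It had 264, 141 and 190 counts in irradiated libraries and 261, 234 and 488 counts in untreated ones. That is 17.55, 16.93 and 16.37 CPM in irradiated glands, against 21.44, 20.42 and 32.49 CPM in untreated glands. The irradiated libraries were nearly level and all below the untreated ones, among which library 3 stood high. The means were 16.95 ± 0.586 CPM in irradiated and 24.78 ± 6.69 CPM in untreated glands (SD, n = 3 each), and the log2 fold change was -0.55 (SE 0.16, 95% interval -0.89 to -0.21), with an adjusted p of 0.107 by edgeR's quasi-likelihood test. Without untreated library 3 the log2 fold change was -0.30 and the adjusted p 0.351. The gene lies within the span of *Kcnq1* on the opposite strand. The strand setting of the counting is not given, so reads from *Kcnq1* introns may be among these counts, which was not tested. *Kcnq1* itself had a log2 fold change of -0.10 (SE 0.27), with overlapping groups.

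Untreated library 3 also had the highest summed fibroblast markers, at 1765 CPM where the other 5 libraries had 871.7 to 1226 CPM, and the highest summed fat cell markers, at 309.6 CPM where the others had 117.2 to 199 CPM. Their part in the *Kcnq1ot1* value was not tested. Of 13 genes of the imprinted domain and its neighbourhood 11 were tested and 0 passed by edgeR or DESeq2, with a median log2 fold change of -0.11 and 2 at an unadjusted p under 0.05. The share of all tested genes at that unadjusted p was 15.0%. *Cdkn1c*, a growth-restraining target of *Kcnq1ot1* silencing, had 1.529, 2.281 and 1.465 CPM in irradiated libraries and 2.382, 1.658 and 5.526 CPM in untreated ones, again with its highest value in untreated library 3. Its log2 fold change was -0.91 (SE 0.42, edgeR adjusted p 0.326). The abundant members *Cd81*, a tetraspanin, and *Nap1l4*, a histone chaperone, had log2 fold changes of 0.05 (SE 0.11) and -0.10 (SE 0.11).

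**Figure D3:**
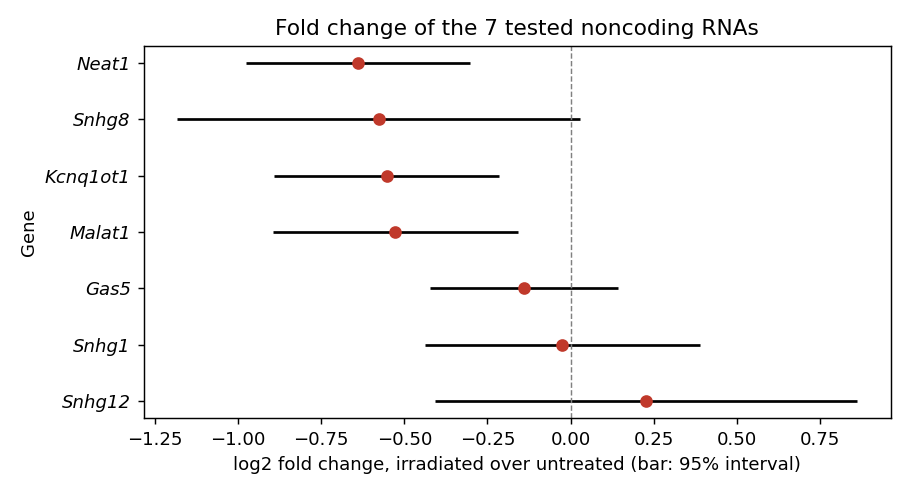
log2 fold change, irradiated over untreated, of the 7 tested noncoding RNAs (dots) with 95% intervals from the edgeR fit (bars). The intervals of *Neat1*, *Malat1* and *Kcnq1ot1* lie below 0, and those of the 4 snoRNA hosts include it.

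The 4 tested snoRNA hosts among the 10 each had overlapping groups. *Gas5* (ENSMUSG00000053332; chromosome 1, 161034422 to 161038539, plus strand), named for its accumulation in growth-arrested cells, had 24.59, 21.13 and 27.66 CPM in irradiated glands and 26.77, 22.43 and 31.69 CPM in untreated glands. The groups overlapped throughout, and the log2 fold change was -0.14 (SE 0.13, 95% interval -0.42 to 0.14). *Snhg1* (ENSMUSG00000108414; chromosome 19, 8723475 to 8726443, plus strand) had 8.906, 5.882 and 6.98 CPM in irradiated glands and 6.817, 7.156 and 8.389 CPM in untreated glands, with a log2 fold change of -0.02 (SE 0.20, 95% interval -0.44 to 0.39) whose sign depended on the scaling, at 0.11 with library totals alone.

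*Snhg8* (ENSMUSG00000104960; chromosome 3, 123507552 to 123508404, minus strand), the shortest of the hosts, had 44, 29 and 40 counts in irradiated libraries and 39, 51 and 103 counts in untreated ones. These are 2.924, 3.481 and 3.447 CPM in irradiated glands, against 3.203, 4.451 and 6.858 CPM in untreated glands. The log2 fold change was -0.58 (SE 0.29, 95% interval -1.18 to 0.03), with an adjusted p of 0.36 by edgeR's quasi-likelihood test, and -0.23 without untreated library 3, which was high for *Snhg8* as it was for *Kcnq1ot1*. *Snhg12* (ENSMUSG00000086290; chromosome 4, 132308623 to 132311024, plus strand) was the only tested one of the 10 with a positive value, at 3.323, 2.641 and 3.275 CPM in irradiated glands and 2.957, 2.182 and 2.796 CPM in untreated glands. Its log2 fold change was 0.23 (SE 0.30, 95% interval -0.41 to 0.86), and the groups overlapped.

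*Snhg3* (ENSMUSG00000085241; chromosome 4, 132348014 to 132353686, minus strand) was at 0 counts in all 6 libraries. Of its 986 exon bases 705 lie under the opposite-strand gene *Gm17300*, 294 under genes of its own strand, and 135 under no other exon. Among protein-coding genes with at least 95% of their exon bases under an opposite-strand exon, 0 of 48 reached 60 counts over the 6 libraries, against 8218 of 16791 genes with no such overlap, which is 48.9%. Among long noncoding genes it was 0 of 151, against 169 of 5896, which is 2.87%. *Snhg3*, with 71.5% of its exon bases under the opposite strand, is outside these classes, so their counts do not settle its 0. Its 692 exon bases free of other exons on its own strand gave 0 as well. The cause of the 0 was not tested. The strand setting of the counting is not given in the sources used here, so a 0 for *Snhg3* does not show that the RNA is absent.

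Taken as a sum, the 5 hosts stood at 39.74, 33.13 and 41.36 CPM in irradiated libraries and 39.75, 36.22 and 49.74 CPM in untreated ones. *Snhg3* added 0 to each sum. *Gas5* made up most of each, at 24.59, 21.13 and 27.66 CPM in irradiated libraries and 26.77, 22.43 and 31.69 CPM in untreated ones. The sums and the ratio below thus mainly follow *Gas5*. The difference between the sums, -3.82 CPM, had an exact two-sided permutation p of 0.5, and with library totals alone it was -0.124 CPM. Ribosomal protein mRNAs are the best-known class with the oligopyrimidine motif, and the log2 ratio of the hosts to the summed ribosomal protein counts was -8.153, -8.342 and -8.15 in irradiated libraries and -8.332, -8.549 and -8.083 in untreated ones. The ratios overlapped, and the difference was 0.106 at an exact two-sided permutation p of 0.7. Of 78 ribosomal protein genes tested 0 rose and 2 fell, with a median log2 fold change of -0.24, 71 negative values, 34 genes at an unadjusted p under 0.05 and no overlap between the groups for 69.2%. Over all tested genes 0.349% fell, 15.0% were at that unadjusted p and 21.2% had no overlap. With length and GC offsets the median of the 78 was -0.08. The 2 were *Rps21*, at 73.41 ± 2.49 CPM in irradiated and 105.6 ± 8.28 CPM in untreated glands, and *Rpl28*, at 129 ± 14.1 CPM in irradiated and 181.2 ± 6.82 CPM in untreated glands (SD, n = 3 each). Their log2 fold changes were -0.52 (SE 0.10) and -0.49 (SE 0.12), at edgeR adjusted p of 0.0175 and 0.0497. The 2 calls became 0 without robust shrinkage and 7 with DESeq2. The whole table had 26 calls without robust shrinkage and 155 with DESeq2.

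Other hosts and the machinery around them were read beside these. Of 12 other noncoding snoRNA hosts 8 were tested and 0 passed by edgeR or DESeq2, with a median log2 fold change of -0.19 and 0 at an unadjusted p under 0.05. That median was -0.06 without untreated library 3, -0.32 without untreated library 2 and -0.08 with length and GC offsets. The most abundant, *Snhg18* and *Snhg17*, had -0.09 (SE 0.13) and -0.19 (SE 0.17). Of 23 protein-coding snoRNA hosts 0 passed by edgeR or DESeq2, with a median of -0.14 and 5 at an unadjusted p under 0.05, where 15.0% of all tested genes were. The groups did not overlap for 10 of the 23, which is 43.5%, against 21.2% of all tested genes. *Tpt1*, a translationally controlled growth protein, had 1000, 844.9 and 1125 CPM in irradiated libraries and 1191, 1393 and 1455 CPM in untreated ones, a log2 fold change of -0.44 (SE 0.15, edgeR adjusted p 0.145). *Eef2*, the translocation factor of the ribosome, had -0.07 (SE 0.15). Of 17 genes for snoRNP core and assembly proteins 0 passed by edgeR or DESeq2, with a median of -0.10 and 0 at an unadjusted p under 0.05. *Nop56*, a C/D core protein and itself a host, had -0.11 (SE 0.13), and *Nolc1*, a snoRNP chaperone, had 0.00 (SE 0.13).

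Genes of nonsense-mediated decay and the exon junction complex act on spliced host RNAs. Among 15 of them 0 rose and 1 fell, where 0.349% of all tested genes fell. The median log2 fold change was -0.18, with 12 negative and 3 positive values. At an unadjusted p under 0.05 in edgeR's test there were 4, where 15.0% of all tested genes were. The groups did not overlap for 6 of the 15, which is 40%, against 21.2% of all tested genes. The gene that fell, *Smg9*, a regulator of the SMG1 kinase, had 6.114, 6.242 and 6.118 CPM in irradiated libraries and 10.1, 10.91 and 9.521 CPM in untreated ones. The irradiated values were nearly level and well below every untreated one. Its log2 fold change was -0.72 (SE 0.17), and its adjusted p of 0.0486 by edgeR's quasi-likelihood test was just under the threshold and was lost when any 1 of the 6 libraries was left out.

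**Figure D4:**
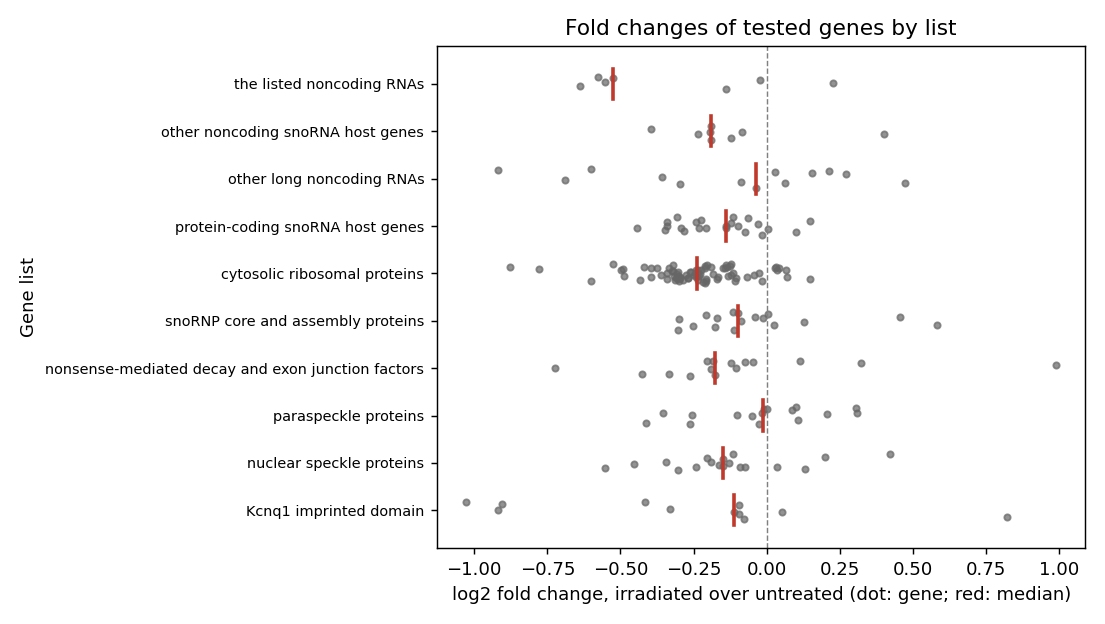
log2 fold change, irradiated over untreated, of each tested gene (grey dots) in the noncoding RNA set and in lists of other hosts, noncoding RNAs, ribosomal proteins and RNA-processing proteins, with the median in red. The median of the 7 tested noncoding RNAs lies at -0.53, and those of the other lists lie between -0.24 and -0.01. Without untreated library 3 the first is -0.2258, and those of the other lists lie between -0.2267 and 0.0803.

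The promoter of *Snhg1* faces that of *Slc3a2*, an amino acid transporter subunit that begins 106 bases away. *Slc3a2* had 120.8, 135.9 and 161.9 CPM in irradiated libraries and 167.5, 202.5 and 176 CPM in untreated ones, with no overlap between the groups, a log2 fold change of -0.38 (SE 0.13) and an edgeR adjusted p of 0.152. For *Trnau1ap*, a selenocysteine tRNA cofactor 739 bases from *Snhg12*, the log2 fold change was -0.40 (SE 0.22). Neither gene passed the threshold.

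*Pvt1* (ENSMUSG00000097039; chromosome 15, 62037986 to 62378096, plus strand), a spliced RNA reported as a p53 target that lies downstream of *Myc*, was close to the detection limit. It had 6, 7 and 4 counts in irradiated libraries and 8, 4 and 5 counts in untreated ones, 17 in each group. Over the group totals that is 0.505 CPM in irradiated glands (95% exact Poisson interval 0.294 to 0.808) and 0.419 CPM in untreated glands (0.244 to 0.671); the intervals cover counting error only and overlap widely. It did not pass the filter and was not tested. *Myc* had 18.08, 12.36 and 12.84 CPM in irradiated libraries and 14.37, 13.61 and 20.71 CPM in untreated ones, a log2 fold change of -0.16 (SE 0.19).

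*Meg3* (ENSMUSG00000021268; chromosome 12, 109541001 to 109571726, plus strand), the maternally expressed RNA of the *Dlk1*-*Dio3* domain, was at 0 counts in all libraries. A count of 0 allows up to 0.089 CPM in irradiated glands and 0.074 CPM in untreated glands, taken as 3 counts of the group's total. The opposite strand covers 6.79% of its exon bases, so overlap of the kind seen for *Snhg3* concerns little of it. The interval from *Dlk1* to *Dio3* (chromosome 12, 109452823 to 110281097) holds 118 listed genes, 67 of them microRNAs, and 6 of the 118 had any count. Of the 132 counts 117 lay in *Gm3379*; *Mirg* had 9 in all, and *Dlk1*, *Rtl1* and *Rian* were at 0, so the other genes of the domain were near or at 0 as well.

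Per kilobase of exon, the order of the 10 was the same in each of the 6 libraries. Exon length here merges all annotated transcripts of a gene. For *Snhg1*, *Snhg8* and *Snhg12* it is 1 unbroken block over the whole gene, and for *Gas5* it is 3760 bases. Stretches that are introns in some transcripts are thus included, and the values of these hosts may be too low beside those of *Malat1* and *Neat1*. *Malat1* had 134 ± 33.8 CPM per kb in irradiated and 193 ± 26 CPM per kb in untreated glands, with n = 3 each and SD as the error. *Neat1* had 19.6 ± 4.86 CPM per kb in irradiated and 30.5 ± 2.79 CPM per kb in untreated glands (SD, n = 3 each). *Gas5* followed at a mean of 6.84 CPM per kb over all libraries, then *Snhg8* at 4.76, *Snhg1* at 2.48 and *Snhg12* at 1.19. *Kcnq1ot1* stood in the seventh place at 0.224 CPM per kb: by CPM it exceeded 75.1% of tested genes, and per kilobase 4.58%. *Pvt1* had 0.0696 CPM per kb, and *Snhg3* and *Meg3* were level at 0. Neighbours in this order whose ranges over libraries overlapped were *Gas5* with *Snhg8*, at 5.62 to 8.43 and 3.43 to 8.04 CPM per kb.

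**Figure D5:**
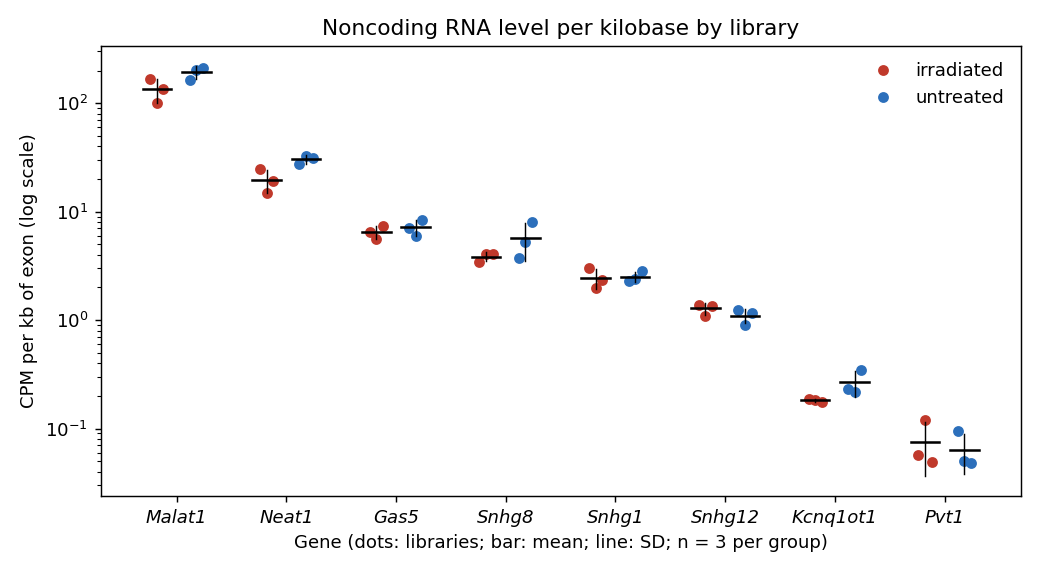
CPM per kilobase of annotated exon (log scale) for the 8 noncoding RNAs with any count, irradiated libraries red on the left of each pair and untreated libraries blue on the right; dots are libraries, bars means and vertical lines SD, n = 3 per group. *Malat1* is the highest in every library, and *Kcnq1ot1*, with 93092 exon bases, comes in the seventh place.

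On the CPM scale the 10 RNAs summed to 1741, 1061 and 1387 in irradiated libraries and 1769, 2160 and 2212 in untreated ones, which did not overlap. As a share of all counts in genes, without the TMM factors, they took 0.1812%, 0.1243% and 0.1328% in irradiated libraries and 0.1684%, 0.1945% and 0.2209% in untreated ones. On this scale the groups overlapped through irradiated library 1 and untreated library 1, and the means of 0.1461% ± 0.0307 in irradiated and 0.1946% ± 0.0262 in untreated glands were compared at an exact two-sided permutation p of 0.2 (SD, n = 3 each). *Malat1* and *Neat1* together made up 15.6%, 11.3% and 12% of all long noncoding counts in irradiated libraries and 14.4%, 17.5% and 20.4% in untreated ones. All long noncoding genes together took 1.126%, 1.046% and 1.064% of counts in irradiated libraries and 1.131%, 1.085% and 1.043% in untreated ones, values that overlapped.

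Of 345 long noncoding genes tested, 0 rose and 1 fell, which is 0.29% against 1.00% of all tested genes. The median log2 fold change was -0.16, and the groups did not overlap for 16.5%, against 21.2% of all tested genes. The 1 was the antisense RNA *Gm16124*, named after its value was seen, at 1.266 ± 0.19 CPM in irradiated and 4.024 ± 0.905 CPM in untreated glands (SD, n = 3 each), with an edgeR adjusted p of 0.0208. Of 25 other well-known long noncoding RNAs 13 were tested and 0 passed by edgeR or DESeq2, with a median of -0.04 and 2 at an unadjusted p under 0.05, where 15.0% of all tested genes were. The most abundant of them were *1700020I14Rik* (*Oip5os1*, also called Cyrano) and *2900097C17Rik* (*Norad*). *1700020I14Rik* had 74.57, 66.03 and 79.11 CPM in irradiated libraries and 64.97, 59.87 and 64.85 CPM in untreated ones, higher in every irradiated library, with a log2 fold change of 0.21 (SE 0.11, edgeR adjusted p 0.36). *2900097C17Rik* had 53.03, 49.34 and 59.63 CPM in irradiated libraries and 101.4, 52.53 and 54.06 CPM in untreated ones, where untreated library 1 stands alone.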

How the data were processed

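RNA from 6 parotid samples was sequenced from libraries made with a strand-marking total RNA kit, per the labels' protocols. Each deposited table holds raw read counts for 1 sample, by Ensembl gene ID. The submitters' processing notes name bcl2fastq, HISAT2, HTSeq and build mm10; versions, annotation release and strand setting are not given in the sources used here. The 5 rows that name no gene held 32.4% to 40.7% of reads and stayed out of library sizes and tests. Symbols, coordinates and exon lengths came from GENCODE M21 (GRCm38, the build mm10); 52489 of 52636 IDs matched.

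Counts were tested with edgeR 4.0.16 (R 4.3.3): quasi-likelihood, robust shrinkage, TMM factors and filterByExpr with minimum count 10, leaving 12885 genes. Adjustment over these followed Benjamini-Hochberg, with a threshold of 0.05. CPM uses TMM-scaled library sizes, and CPM per kb divides by annotated exon length, merged over the transcripts of a gene. Likeness is the root mean square difference of log2 CPM (prior count 2) centred over the 6 libraries. Single sums and ratios used exact permutation tests. Alternatives were DESeq2 1.42.0, other scalings, no filter, no robust shrinkage, length and GC offsets (mgcv 1.9.3), a replicate block and leaving out each library. Counts of snoRNA genes within the hosts could not be tested, all being 0. No pair of libraries agreed within sampling noise (chi-square per degree of freedom at least 12.81). The procedure was tested on simulated data.

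The genes and lists were chosen with earlier results of these data known. Named genes are the 10 RNAs; of each list, up to 4 called genes or else the 2 most abundant; the nearest protein-coding genes; and the 3 genes most like *Malat1* and *Neat1*. Some genes that this rule names are not reported here.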

Additional observations from a re-analysis of the deposited data

How the results depend on the processing

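With 3 libraries a group and at most 103 counts a library for *Snhg8* and *Snhg12*, intervals for these stay wide, and *Pvt1*, *Meg3* and *Snhg3* gave no test. All 7 log2 fold changes kept their sign in 13 alternatives, except *Snhg1*, whose -0.02 became 0.11 with library totals alone and 0.0938 without irradiated replicate 2, with a range of -0.2088 to 0.0938 on leaving out a library (0.01 without irradiated replicate 3 and 0.07 without untreated replicate 3). The ranges were -0.72 to -0.36 for *Malat1*, -0.84 to -0.48 for *Neat1*, -0.67 to -0.30 for *Kcnq1ot1*, -0.80 to -0.23 for *Snhg8*, -0.26 to -0.0049 for *Gas5* and 0.11 to 0.36 for *Snhg12*. Of the 10 RNAs, 0 called became 3 with no filter on low counts (*Malat1* at an edgeR adjusted p of 0.00735, *Neat1* at 0.000509, *Kcnq1ot1* at 0.00377) and 1 with DESeq2 (*Neat1*); leaving out a library gave 0 to 1, the 1 being *Neat1* at 0.0442 without irradiated replicate 1. Over these alternatives the adjusted p ran to 0.413 for *Malat1*, 0.195 for *Neat1* and 0.351 for *Kcnq1ot1*. The median of the 7 ranged over -0.64 to -0.23. With library totals alone the medians of the paraspeckle, other long noncoding RNA, *Kcnq1* domain, snoRNP and protein-coding host lists were 0.13, 0.12, 0.05, 0.04 and 0.0040, each of them negative with TMM factors. In the whole table the 129 calls (84 higher, 45 lower) became 281 (259 and 22) with library totals alone, 518 (279 and 239) with no filter, 26 (21 and 5) without robust shrinkage and 53 (39 and 14) with the replicate block; leaving out a library gave 45 to 155 (31 to 83 higher, 14 to 72 lower). The lowest was without irradiated replicate 1. With DESeq2 the whole table had 155 calls (97 higher and 58 lower). Same-numbered libraries of the 2 groups correlated in their deviations at 0.0199, -0.111 and -0.107, and differently numbered ones at -0.0307 to 0.122. The deviations were taken from means of 3 libraries, so these values cannot decide whether the replicate numbers pair the samples. The 1 call in nonsense-mediated decay, *Smg9*, became 0 with DESeq2, without robust shrinkage, with the replicate block, with length and GC offsets and without any library. The 2 ribosomal protein calls became 1 with DESeq2-type size factors, 6 with no filter, 7 with DESeq2, 0 without robust shrinkage, 0 with the block, 0 with length and GC offsets, and 0 to 3 without a library (0 without irradiated replicate 1, untreated replicate 2 or untreated replicate 3, and 1 without untreated replicate 1). From 0, protein-coding hosts gave 1 with no filter, paraspeckle proteins 1 with library totals, and nuclear speckle proteins 1 with library totals, 2 with no filter, 1 with DESeq2, 1 with length and GC offsets and 0 to 1 without a library. The summed host difference of -3.82 CPM ranged over -6.66 to 0.0963 without a library, the highest without untreated replicate 3, and was -0.124 with library totals alone. The host to ribosomal protein log2 ratio difference of 0.106 ranged over -0.00718 to 0.225, the lowest without untreated replicate 2. The difference in the summed share, -0.0485 percentage points, ranged over -0.0661 to -0.0354 without a library and was -0.126 with the 10 most abundant genes left out of the denominator. The difference in the log2 ratio of *Neat1* to *Malat1* ranged over -0.164 to -0.0752. The cause of these shifts was not tested.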

Other observations

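Among long noncoding genes, *BC037156* and *Gm14135*, which had the highest CPM of that class, exceeded *Malat1* in CPM. *BC037156* had 5103, 3735 and 5352 CPM in irradiated libraries and 3690, 4720 and 3672 CPM in untreated ones, which overlapped. *Gm14135* had 1890, 2142 and 2332 CPM in irradiated libraries and 4279, 2932 and 2335 CPM in untreated ones, a log2 fold change of -0.58 (SE 0.19, edgeR adjusted p 0.154). *Trp53cor1*, known as lincRNA-p21 and transcribed beside *Cdkn1a*, had 0.5317, 0.3601 and 0.2585 CPM in irradiated libraries and 0, 0.1745 and 0.06658 CPM in untreated ones, too few counts to be tested.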
